A study of Mus musculus with 3 samples.

Results

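Claudins were measured in 3 droplet libraries of single cells from the mouse iridocorneal angle and limbus, the region that holds the trabecular meshwork (TM), Schlemm's canal (SC), the ciliary body and the edge of the cornea. The members are the 10 listed genes *Cldn1*, *Cldn2*, *Cldn3*, *Cldn4*, *Cldn5*, *Cldn7*, *Cldn10*, *Cldn11*, *Cldn19* and *Cldn23*, out of 31053 genes in the count matrices. Claudins are tetraspan membrane proteins that polymerise into the strands of tight junctions, and their combination in a cell layer sets how tight that layer is and which ions pass between its cells. Barrier claudins such as *Cldn1*, *Cldn4* and *Cldn5* seal the path between cells, whereas pore claudins such as *Cldn2* and, by isoform, *Cldn10* let ions through. In the eye they close the surface epithelium, the retinal pigment epithelium, the ciliary epithelium and the vessel walls.

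Both groups were 6 weeks old and homozygous for floxed *Angpt1*. The 2 control libraries came from *Angpt1* flox/flox mice and the single *Angpt1*ΔNC library from *Angpt1* flox/flox;Wnt1Cre+ mice, in which *Wnt1*-driven Cre deletes *Angpt1* in neural crest cells and their descendants, stroma and TM among them. The mice were an albino stock, obtained by crosses onto ICR, and eyes of 2 to 3 mice went into a pool, which makes the pool the unit of replication. *Angpt1* had 2911 and 3158 UMIs in the controls and 26 in *Angpt1*ΔNC, and *Xist* had 3, 2 and 43346 UMIs, so the pools also differed in sex make-up and genotype and sex make-up cannot be told apart.

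The authors kept 9076, 10160 and 6772 cells (control replicate 1, control replicate 2 and *Angpt1*ΔNC, the order of all values below), with medians of 6329.5, 6393.5 and 7444 UMIs per cell, and gave each cell 1 of 35 labels. Between 13 and 25 kept barcodes were shared by each pair of libraries. A level here is the mean over the cells of a label of the gene's UMIs per 10,000 UMIs of the cell. Labels came from clustering these same cells, so levels in different labels are described without a test. Intervals of cell shares (CI) are exact 95% Clopper-Pearson intervals and cover counting error only.

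The members held 287063 of the 289943 claudin UMIs of the kept cells (99.01%). *Cldn4* contributed 166092 UMIs, *Cldn7* 66855, *Cldn5* 22993, *Cldn10* 16001, *Cldn1* 7722, *Cldn3* 4286, *Cldn23* 1495, *Cldn11* 737, *Cldn19* 602 and *Cldn2* 280. The other 23 claudin genes together had 2880 UMIs, and 6 of them had 0.

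In the mouse genome (GRCm38, GENCODE M21) the members are spread over several chromosomes. *Cldn3* (chr5:134986214-134987472, plus strand) and *Cldn4* (chr5:134945119-134946934, minus strand) are neighbours, 39279 bases apart and transcribed away from each other. *Cldn5* (chr16:18776847-18778262) and *Cldn1* (chr16:26356642-26371841) share a chromosome but not a neighbourhood, and *Cldn7* is at chr11:69964779-69967885. *Cldn10* (chr14:118787908-118875489), *Cldn11* (chr3:31149920-31164324), *Cldn19* (chr4:119255414-119262438), *Cldn23* (chr8:35824712-35826559) and *Cldn2* (chrX:139800828-139811386) complete the set.

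Promoter windows of 300 bases (250 before and 50 after the start site, RefSeq, GRCm38.p6) were found for 9 of the 10 members, and *Cldn23* had no entry. They were searched on both strands for the E-box CAGGTG, which Snail and Zeb repressors bind in epithelial genes, for the Grainyhead letters AACNGGTT and for the TATA box TATAAA. No matches overlapped in the members. The promoters of *Cldn4* and *Cldn7*, the claudins with the most UMIs and the same leading labels, and of *Cldn5*, the endothelial claudin, are shown from 110 bases before to 25 bases after the start, with the matched letters in capitals. *Cldn4* is at chr5:134946910-134947044, minus strand, the second start of *Cldn7* at chr11:69965311-69965445, plus strand, and *Cldn5* at chr16:18776737-18776871, plus strand.
*Cldn4*: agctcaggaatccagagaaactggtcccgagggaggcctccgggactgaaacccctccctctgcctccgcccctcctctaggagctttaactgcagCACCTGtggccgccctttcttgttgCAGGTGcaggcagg
*Cldn7*: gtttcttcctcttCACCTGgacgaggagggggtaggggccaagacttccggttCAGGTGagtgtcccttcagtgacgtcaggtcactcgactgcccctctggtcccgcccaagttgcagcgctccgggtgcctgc
*Cldn5*: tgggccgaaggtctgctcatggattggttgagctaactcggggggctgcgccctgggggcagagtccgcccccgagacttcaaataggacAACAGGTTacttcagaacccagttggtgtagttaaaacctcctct
The capitals in *Cldn4* are E-boxes that begin at -14 and +12 from the start site, and those in *Cldn7* are E-boxes at -97 and -57. *Cldn3* had 1 E-box at +32. Its letters occur in 20.2% of 32851 promoters of this length. The first start of *Cldn7* and the promoters of *Cldn1*, *Cldn10*, *Cldn11* and *Cldn19* had no match of any kind. *Cldn5* had a Grainyhead match at -20 (2.09% of promoters), and *Cldn2* a TATA box at -35 (13.6%). These matches are descriptions of letters and were not tied to any level.

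Each claudin had its own set of labels. Among the 32 labels with at least 20 cells in every library, *Cldn4* and *Cldn7* reached a level of 1, as the mean of the 3 libraries, in the same 4 labels, all of the surface epithelium, and *Cldn5* reached 1 in EC2, EC3, EC4 and cluster 18. *Cldn10* reached 1 in TM2, TM3, TM4 and TM5, with TM4 at 0.905 in the controls alone. *Cldn1* did so in 2 labels, clusters 3 and 5, with cluster 5 at 0.929 in the controls alone, *Cldn3* in 1 and *Cldn19* in 1, and *Cldn2*, *Cldn11* and *Cldn23* in 0. The map shows the levels of the controls alone.

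**Figure D1:**
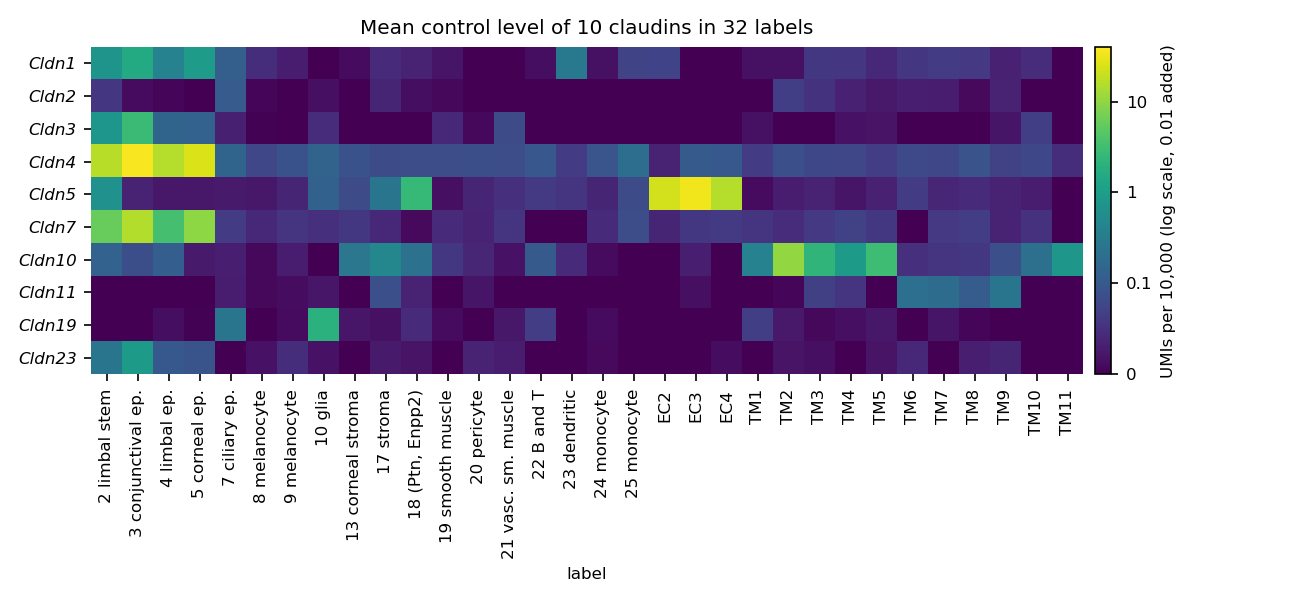
Mean level of the 10 claudins (rows) in the 2 control libraries, over the 32 labels with at least 20 cells in every library (columns), as UMIs per 10,000 on a log colour scale with 0.01 added. *Cldn4* and *Cldn7* are bright in clusters 2 to 5, *Cldn5* in EC2 to EC4 and cluster 18, and *Cldn10* in TM2 to TM5.

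The surface epithelium carried 5 members. The authors named cluster 3 conjunctival, 4 limbal and 5 corneal epithelium and cluster 2 limbal stem cells. Of the conjunctival marker list, the keratins *Krt13*, *Krt4*, *Krt19* and *Krt7* were highest in cluster 3. The keratin *Krt8* of that list was at 3.76 in cluster 2 and 3.66 in cluster 3, as means of the 3 libraries. *Cldn4*, a barrier claudin of stratified and simple epithelia, was at 32.2, 41.4 and 29.3 UMIs per 10,000 in cluster 3 and at 26.6, 24.5 and 22.5 in cluster 5. It was at 18.4, 13.5 and 18.9 in cluster 4 and at 19.4, 12.7 and 17.7 in cluster 2. Clusters 3 and 5 each lay above the next label in every library, whereas clusters 4 and 2 overlapped. The next label, the monocyte cluster 25, had a mean level of 0.243, 68.4-fold under cluster 2.

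*Cldn4* was detected in 85.7%, 100.0% and 98.4% of the cells of cluster 3 (CI 77.2 to 92.0%, 96.4 to 100.0% and 95.5 to 99.7%). In pericytes (cluster 20), which were taken as a measure of free RNA, the shares were 2.82%, 2.34% and 4.95%. Cluster 3 was deeper (medians 21944, 16445 and 20683 UMIs against 4297, 4372 and 3945.5), and with every cell thinned to 1000 UMIs the shares were 72.2%, 84.8% and 83.2% against 0.707%, 0.534% and 1.08%. No label of the 32 had *Cldn4* at 0, and 22 of them lay under a level of 0.1.

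*Cldn7*, which is found along the lateral membrane of epithelial cells, had the same 4 leading labels. Its levels were 14.4, 16.6 and 18.4 in cluster 3, 10.4, 9.29 and 10.3 in cluster 5, 6.07, 5.62 and 7.69 in cluster 2 and 3.92, 3.07 and 4.87 in cluster 4. All 3 libraries kept this order, and the next label, TM4, was 81.8-fold lower at a mean of 0.0483. Both *Cldn4* and *Cldn7* were detected in 84 of 98, 99 of 100 and 187 of 192 cells of cluster 3.

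*Cldn1*, the claudin whose loss opens the epidermal barrier, stood at 1.51, 1.64 and 1.69 in cluster 3. It was at 0.985, 0.872 and 1.33 in cluster 5, at 0.811, 0.614 and 0.87 in cluster 2 and at 0.345, 0.421 and 0.569 in cluster 4. Cluster 23, which carried the dendritic cell genes *Cd74* and *H2-Ab1*, had 28, 20 and 40 UMIs (levels 0.421, 0.137 and 0.46) and overlapped cluster 4. The retinal pigment epithelium (RPE, cluster 1), too small in *Angpt1*ΔNC for the ranking, had 0.766, 0.521 and 0.883, in 84 of 133, 34 of 81 and 10 of 17 cells. Of the pericytes, 0 of 461, 0 of 512 and 0 of 222 cells had a UMI of *Cldn1*, and the exact upper limits of the share of cells with a UMI were 0.797%, 0.718% and 1.65%.

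*Cldn3* and *Cldn23* were concentrated in the conjunctival label. *Cldn3*, a sealing claudin close to *Cldn4* in sequence, was at 1.67, 4.0 and 2.81 in cluster 3, with 56.1%, 84.0% and 74.0% of cells positive (CI 45.7 to 66.1%, 75.3 to 90.6% and 67.1 to 80.0%). The controls thus spanned more than the distance of *Angpt1*ΔNC from either. Cluster 2 had 0.643, 0.886 and 0.416, and clusters 5 and 4 overlapped at 0.121 to 0.268. Every *Cldn3*-positive cell of cluster 3 also had *Cldn4* (55, 84 and 142 cells). *Cldn4* was detected in 84 of 98, 100 of 100 and 189 of 192 cells of that label, so little else was possible in the last 2 libraries.

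*Cldn23*, a claudin of differentiated epithelium, was at 1.37, 0.465 and 0.617 in cluster 3, where 58.2%, 48.0% and 55.7% of cells were positive. The other labels of the surface epithelium lay at 0.319, 0.155 and 0.257 (cluster 2) and below 0.12 (clusters 4 and 5). Pericytes had 4, 3 and 0 *Cldn23* UMIs. Over the members, a cell of cluster 3 had a mean of 3.7, 4.16 and 4.23 detected claudins, a cell of EC3 1.09, 1.1 and 1.1, and a pericyte 0.0521, 0.0508 and 0.0676.

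**Figure D2:**
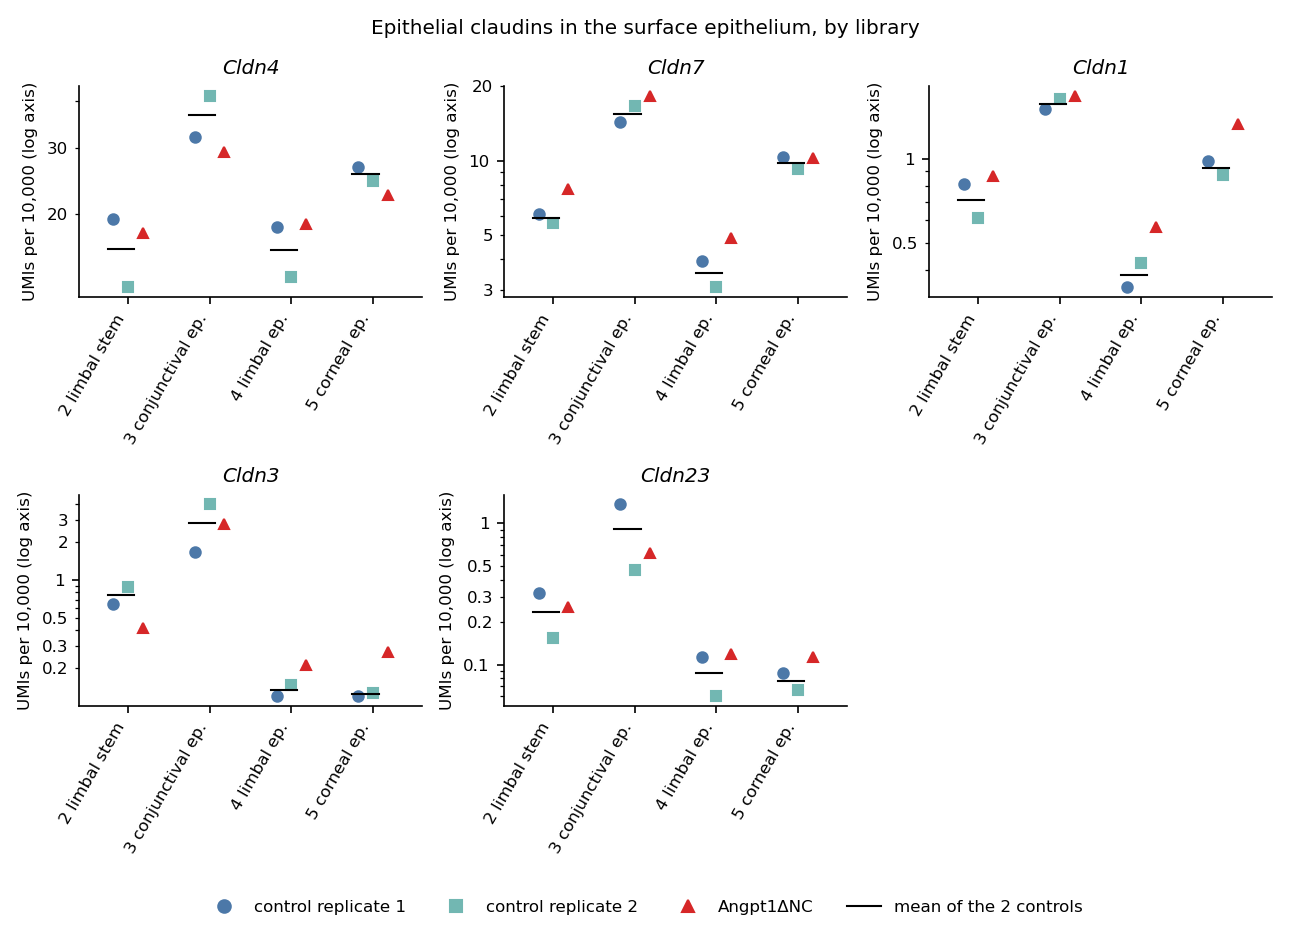
Levels of 5 claudins (UMIs per 10,000, log axes that differ between panels) in the 4 labels of the surface epithelium, 1 point per library with a bar at the mean of the 2 controls. Cluster 3 is highest for each gene, and the *Angpt1*ΔNC triangle lies above both controls for *Cldn1* and *Cldn3* in clusters 4 and 5.

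Between genotypes the claudins were compared on UMIs summed per library within a label, in the 29 labels with at least 50 cells in each library. The test was edgeR's quasi-likelihood test with Benjamini-Hochberg adjustment over all genes of the label, with 2 libraries against 1 and 1 residual degree of freedom, and the spread of *Angpt1*ΔNC, with its single library, was taken to equal that of the controls. Of 290 gene and label pairs, 77 had enough counts, and 12 were called at an adjusted p under 0.05, all 12 higher in *Angpt1*ΔNC. Over all genes 249562 tests gave 12614 calls (5.05%), 6335 of them higher in *Angpt1*ΔNC (2.54%). The median log2 change was 0.56 over the claudin pairs and -0.02 over all tests, and 61 claudin pairs had a positive and 16 a negative change. Of the 12 called pairs, 2 had enough counts in the *Angpt1*ΔNC library alone (*Cldn5* in TM9 and *Cldn11* in TM4), as had 12 that were not called, and 5 uncalled pairs had them in controls alone. Such pairs enter only where that group is high, and several pairs share a gene or a library, so they are not independent of each other.

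**Figure D3:**
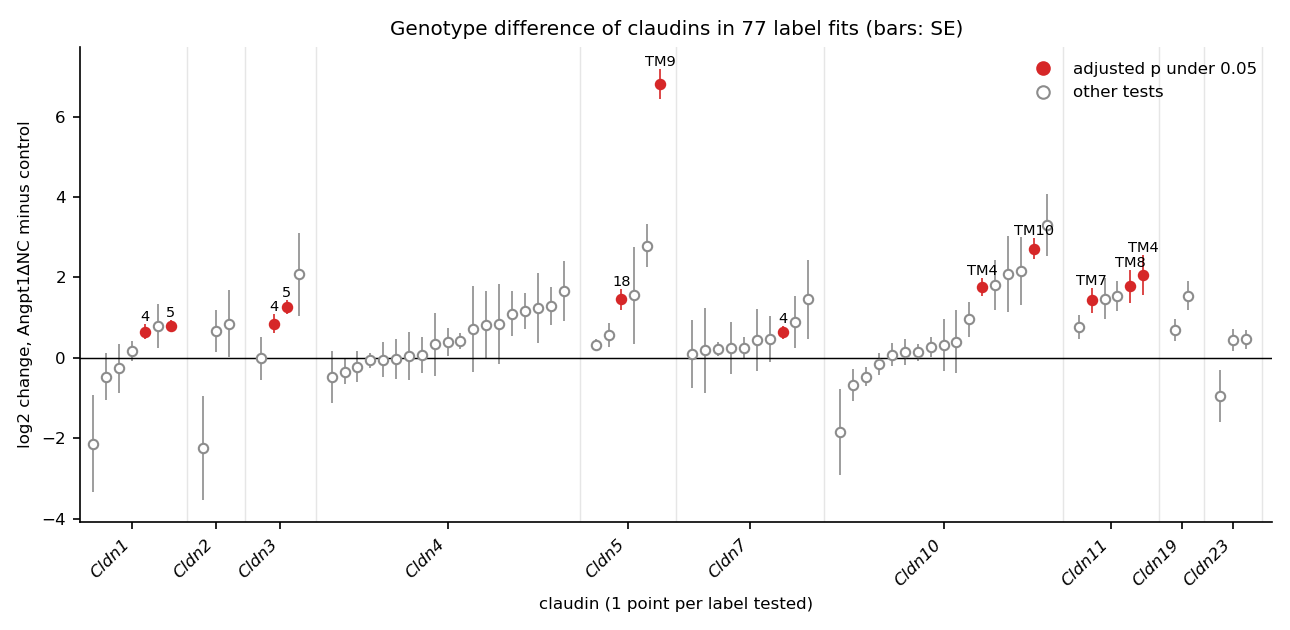
Log2 change (*Angpt1*ΔNC minus control, bars: standard error of the fit) of each claudin in each of the 77 label fits, ordered by size within a gene, filled where the adjusted p was under 0.05. The 12 filled points are named by label and all lie above 0, with *Cldn5* in TM9, which passed the filter on low counts through *Angpt1*ΔNC alone, at 6.81.

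In limbal epithelium (cluster 4) *Cldn1*, *Cldn3* and *Cldn7* rose, 3 claudins in a label where 6.19% of genes were called higher. *Cldn1* had 232, 312 and 624 UMIs, a log2 change of 0.65 ± 0.18 (SE, adjusted p = 0.00532). *Cldn3* had 78, 90 and 221 UMIs and changed by 0.85 ± 0.23 (adjusted p = 0.00427). *Cldn7* had 2448, 2062 and 5131 UMIs and changed by 0.64 ± 0.17 (adjusted p = 0.00244). In each, the *Angpt1*ΔNC level lay above both controls. *Cldn4* in the same cells had a log2 change of 0.42 that was not called (adjusted p = 0.195), its level of 18.9 in *Angpt1*ΔNC being close to the 18.4 of control replicate 1.

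The limbal marker list (*Krt15*, *Krt14*, *Krt5*, *Trp63*, *Gpha2*, *Ifitm3*) summed to 236.1, 255.5 and 208.8 UMIs per 10,000 in cluster 4 and the corneal list to 53.5, 42.1 and 34.1, and the part of this shift in the claudin values was not tested. The 3 calls are among the less stable ones: with DESeq2 the adjusted p was 0.487 for *Cldn1*, 0.566 for *Cldn3* and 0.131 for *Cldn7*. Here the spread was fitted with infinite prior degrees of freedom, so that the distance between a gene's own controls carried no weight, and without TMM scaling, which moved the median gene of the label by -0.15 (log2), none of the 3 was called.

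In corneal epithelium (cluster 5) *Cldn1* and *Cldn3* rose again, in a label with 1.26% of genes called higher. *Cldn3* had 240, 198 and 280 UMIs in 575, 505 and 270 cells, a log2 change of 1.25 ± 0.18 (adjusted p = 0.0227). *Cldn1* had 1414, 1133 and 1183 UMIs and changed by 0.79 ± 0.15 (adjusted p = 0.0485), and with DESeq2 its adjusted p was 0.0604. Without TMM scaling, or with equal numbers of cells, neither was called. The fits in clusters 4 and 5 use the same 3 libraries, so their agreement is not an independent repeat.

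The conjunctival list summed to 0.4, 0.65 and 2.11 in cluster 5 and the limbal keratin *Krt15* stood at 0.978, 3.13 and 16.5, while the corneal list summed to 360.9, 296.8 and 257.6. Whether these cells carry the change of *Cldn1* and *Cldn3* was not tested. *Cldn4* (log2 change -0.07, adjusted p = 0.885) and *Cldn7* (0.21, adjusted p = 0.538) were not called in cluster 5.

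In conjunctival epithelium 6 claudins were tested and 0 were called. The log2 change was -0.34 ± 0.31 for *Cldn4*, 0.25 for *Cldn7*, 0.17 for *Cldn1*, -0.01 for *Cldn3* and -0.96 ± 0.65 for *Cldn23*, with adjusted p from 0.823 to 0.998. This fit called 0 of 8953 genes with edgeR, with 521 at an unadjusted p under 0.05, and DESeq2 called 25.

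Other tight junction genes were compared as a list of 24 (scaffolds such as *Tjp1*, other strand proteins such as *Ocln*, junctional adhesion molecules and polarity proteins). Over all labels 307 tests gave 24 calls, 10 higher and 14 lower, where 5.05% of the tests of all genes were called, with a median log2 change of -0.12. In cluster 4, 7 of 19 were called, where 11.9% of all genes were called in either direction. Among those that were higher were *Ocln*, which sits with claudins in the strands (178, 136 and 430 UMIs, log2 change 0.90, adjusted p = 0.000136), and the cytoplasmic linker *Cgn* (14, 14 and 54 UMIs, 1.39, adjusted p = 0.0214). Lower were the adhesion molecule *Cxadr* (-0.80), the scaffolds *Magi1* (-1.28) and *Magi3* (-0.94) and the polarity protein *Pard6b* (-1.08). In cluster 5, where 2.23% of all genes were called, 0 of 19 were.

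*Cldn5*, the main strand protein of endothelial tight junctions and of the blood-retina barrier, was highest in the vessels. EC3, a choriocapillaris-like label, had levels of 32.3, 35.0 and 40.9, with 116 of 118, 118 of 118 and 58 of 58 cells positive. The venous EC2 had 18.5, 26.9 and 38.5, and the arterial EC4 9.92, 21.98 and 19. The order EC3, EC2, EC4 held within each library, but the ranges over libraries of EC3 and EC2 and of EC2 and EC4 overlapped. Limbal and corneal epithelium, which should lack *Cldn5*, had 12 of 989, 11 of 1012 and 10 of 911 positive cells at greater depth, about 1.1 to 1.21% of cells.

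In SC endothelium *Cldn5* stood at 25.7 and 24.2 in the controls and at 7.82 in *Angpt1*ΔNC. It was detected in 45 of 46 (CI 88.5 to 99.9%), 53 of 63 (CI 72.7 to 92.1%) and 8 of 15 cells (CI 26.6 to 78.7%). With 15 cells SC was under the minimum for a test, and 65 of its 140 *Angpt1*ΔNC UMIs were in 1 cell. The lymphatic label LEC had 3, 1 and 12 cells, at levels of 21.5, 26.5 and 31.7.

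In EC3, the largest vessel label in the controls, the log2 change was 0.32 ± 0.14 (adjusted p = 0.158) and in EC4 0.56 (adjusted p = 0.396), neither called. Over all 5 vessel labels together the levels were 22.4, 27.7 and 28.5.

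*Cldn5* was also present outside the vessels, in cluster 18, an unnamed label whose leading genes are *Ptn*, *Enpp2* and *Igf1*. The levels were 3.48, 1.72 and 6.77, with 109 of 301, 39 of 165 and 289 of 534 cells positive, far above the epithelial background. The log2 change was 1.45 ± 0.25 (516, 157 and 2628 UMIs, adjusted p = 0.000182), in a label with 1.5% of genes called higher. Leaving out the cell with the most *Cldn5* UMIs in each library gave a log2 ratio of 1.47, and without TMM scaling the adjusted p was 0.108.

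TM9, a label of uveal stroma, had almost no *Cldn5* in the controls. It counted 1 UMI in 204 cells and 3 UMIs in 298 cells, against 361 UMIs in *Angpt1*ΔNC, where 54 of 327 cells were positive (16.5%, CI 12.7 to 20.99%). The ratio of summed levels was 110 (exact counting interval 42.5 to 405), and the fitted log2 change was 6.81 ± 0.38, in a label with 7.16% of genes called higher. The pair passed the filter on low counts through the *Angpt1*ΔNC library alone, so its call is no support beyond these counts, and with equal numbers of cells per library the adjusted p was 0.229. Without the top cell 325 UMIs remained in *Angpt1*ΔNC.

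Cluster 17, stroma, had levels of 0.465, 0.0227 and 0.495, so that *Angpt1*ΔNC did not stand apart from control replicate 1. There 18 of 466, 7 of 924 and 65 of 892 cells were positive, 42 of the 122 UMIs of control replicate 1 were in 1 cell, and the log2 change of 1.55 ± 1.22 was not called (adjusted p = 0.509).

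The *Cldn5*-positive cells of clusters 17 and 18 and TM9 had few endothelial transcripts. Of 585 such cells, 38 had a UMI of at least 1 of *Cdh5*, *Pecam1*, *Tek*, *Tie1*, *Kdr* and *Egfl7*, and 1 had at least 2 of them. The 6 genes summed to 0.203, 0.171 and 0.0706 UMIs per 10,000 in cluster 18 and to 0.206, 0.105 and 0.0572 in TM9, with 3 of 6 at 0 in TM9 of *Angpt1*ΔNC. In TM9 of *Angpt1*ΔNC, *Ptn*, a gene chosen after its values were seen, was at 139.1 in *Cldn5*-positive and 49.5 in negative cells. In cluster 17 of control replicate 1 it was at 184.3 against 11.8, and of *Angpt1*ΔNC at 127.6 against 19.8. In these groups positive cells held more *Ptn*, a leading gene of cluster 18, than negative cells of their own label. In cluster 17 of control replicate 2, *Ptn* was at 60.3 against 6.37. In cluster 18 itself *Ptn* was at 215.7 against 188.8, 197.4 against 145.2 and 179.7 against 176.7. The TM9 controls, with 1 and 3 positive cells, had 6.18 against 25.2 and 30.8 against 29.5. The reason for these values was not tested.

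**Figure D4:**
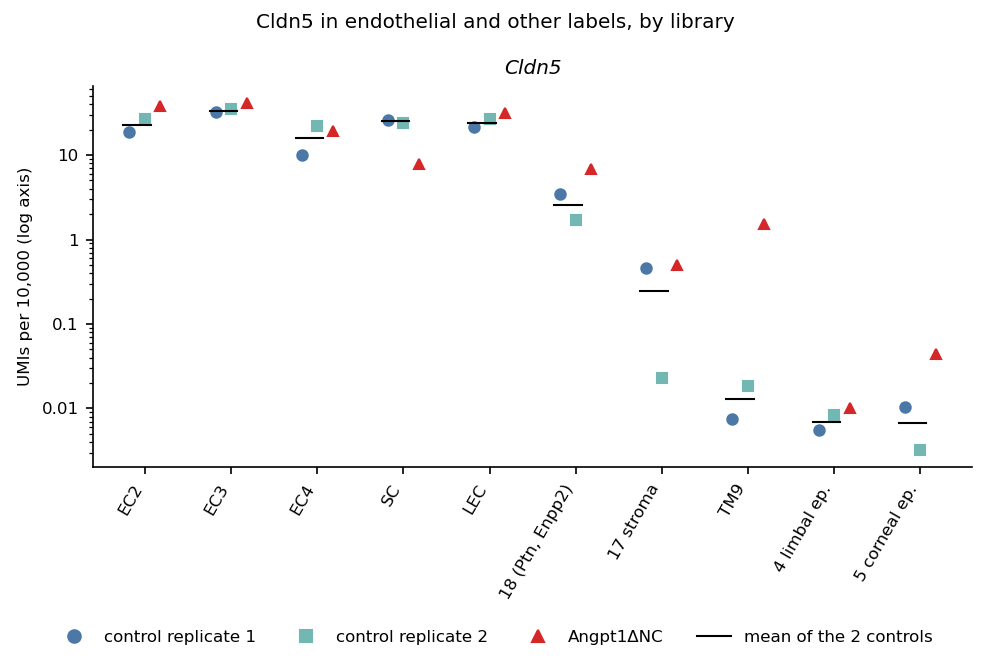
*Cldn5* level (UMIs per 10,000, log axis) in the vessel labels, in clusters 18 and 17 and TM9, and in limbal and corneal epithelium as background, 1 point per library with a bar at the mean of the 2 controls. The TM9 point of *Angpt1*ΔNC at 1.53 is far above its controls, and the SC point at 7.82, from 15 cells, lies below them.

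*Cldn10*, whose isoforms form cation or anion pores, was highest in labels of the inner angle. Counts per gene do not separate the transcripts of its 2 promoters. TM2, the corneal endothelium by the authors' name and by *Slc4a11* and *Cdh2*, had 8.03, 12.9 and 9.79 UMIs per 10,000, with 301 of 324, 492 of 504 and 306 of 325 cells positive. Next came TM5 at 2.76, 3.23 and 3.36 and TM3 at 1.99, 2.5 and 2.49. Pericytes had 1, 2 and 1 positive cells. TM2 lay above TM5 and TM5 above TM3 in every library, while the labels that follow overlapped.

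*Cldn10* did not differ by genotype in TM2 (log2 change -0.16, adjusted p = 0.84), but it rose in TM4 and TM10. In TM4, one of the authors' TM or juxtacanalicular labels, its level was 0.756, 1.05 and 3.01, and 22.7%, 30.6% and 51.8% of cells were positive (CI 18 to 28%, 25.7 to 35.9% and 46.1 to 57.4%). The log2 change was 1.77 ± 0.22 (177, 301 and 847 UMIs, adjusted p = 9.37e-05), with 2.86% of genes called higher in TM4. The TM marker list summed to 127.2, 128.9 and 58.7 in TM4 and the corneal endothelium list to 10.5, 11.7 and 14.0. The part of this in the *Cldn10* values was not tested.

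In TM10, the *Cd34*-positive stroma, *Cldn10* was at 0.201, 0.207 and 1.39, with 18 of 194, 16 of 167 and 104 of 188 cells positive. The controls agreed closely and *Angpt1*ΔNC lay above both. The log2 change was 2.71 ± 0.26 (29, 23 and 217 UMIs, adjusted p = 7.12e-19), with 5.76% of genes called higher. The corneal endothelium list summed to 2.85, 3.54 and 2.33 there, and its part in the *Cldn10* values was not tested. *Cldn10* in TM4 and TM10 were the 2 claudin pairs called under all 6 alternative settings. In TM10 the junctional adhesion molecule *Jam2* fell (110, 96 and 27 UMIs, log2 change -2.27, adjusted p = 2.23e-10), as did *Cgnl1* (-1.50), and in TM4 *Magi1* (-2.11).

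*Cldn11*, known from the barrier of myelin and of Sertoli cells, was low and spread over the uveal stroma labels. TM6 had levels of 0.19, 0.199 and 0.64, TM9 0.17, 0.317 and 0.418, TM7 0.142, 0.21 and 0.481 and TM8 0.0738, 0.126 and 0.353. The ranges over libraries of these neighbours overlapped, and TM7 lay above TM8 within each library. Among labels with at least 20 cells in every library, the mean share of positive cells over the 3 libraries was highest in TM7. The TM7 shares were 5.85%, 9.34% and 24.7% (39 of 667, 69 of 739 and 43 of 174 cells). Pericytes had 1 positive cell in each library. TM9 lay above TM7 in both controls and below it in *Angpt1*ΔNC, at 7.35%, 13.4% and 17.7%. In control replicate 1, TM6 also lay above TM7, at 6.25%. After thinning to 1000 UMIs the TM7 shares were 1.33%, 1.96% and 4.54%. Clusters 3 and 5 had 0 *Cldn11* UMIs.

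*Cldn11* was tested in 6 labels, was above both controls in *Angpt1*ΔNC in each and was called in 3. TM4 and TM6 passed the filter on low counts through *Angpt1*ΔNC alone, so their place above the controls is no support. In TM7 the log2 change was 1.43 ± 0.31 (57, 110 and 66 UMIs from unequal numbers of cells, adjusted p = 0.0375, 2.53% of genes called higher). In TM8 it was 1.77 ± 0.42 (19, 39 and 29 UMIs, adjusted p = 0.0405, 1.97% of genes called higher), and in TM4 2.06 ± 0.51 (7, 7 and 31 UMIs), a pair that passed the filter on low counts through *Angpt1*ΔNC alone and whose call is no support beyond these counts. TM9 (0.78, adjusted p = 0.0575), cluster 17 (1.53, adjusted p = 0.136) and TM6 (1.47, adjusted p = 0.3) were not called. With DESeq2 the adjusted p was 0.1 in TM7 and 0.41 in TM8. The TM marker list summed to 29.6, 40.4 and 10.2 in TM7 and to 1.91, 3.63 and 0.634 in TM8, whose part in these values was not tested.

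*Cldn19* was highest in glia. Cluster 10, which the authors named astrocytes and which was highest for the myelin gene *Mbp*, had levels of 1.62, 2.35 and 3.08, with 21 of 138, 38 of 148 and 16 of 70 cells positive. *Cldn19* is known from Schwann cells, where it seals the myelin sheath, and from the RPE. The ciliary epithelium (cluster 7) followed at 0.375, 0.111 and 0.771, with 56 of 316, 8 of 107 and 60 of 139 cells positive. Pericytes had 0 UMIs. Neither label showed a called change (log2 change 0.69, adjusted p = 0.348 in cluster 10, and 1.55, adjusted p = 0.104 in cluster 7, where the controls had 102 and 13 UMIs).

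*Cldn2*, the cation and water pore of leaky epithelia, had the fewest UMIs. Among the 32 labels it led in ciliary epithelium at 0.0892, 0.109 and 0.121 (19, 11 and 26 UMIs), where it was not called (log2 change 0.67, adjusted p = 0.65). The RPE label, too small in *Angpt1*ΔNC for the ranking, was higher in the controls, at 0.267, 0.254 and 0.0257. There, with 133, 81 and 17 cells, *Cldn2* had 106, 20 and 2 UMIs, in 31.6%, 19.8% and 5.88% of cells, and the interval of the last share, 0.149 to 28.7%, overlaps those of the controls.

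**Figure D5:**
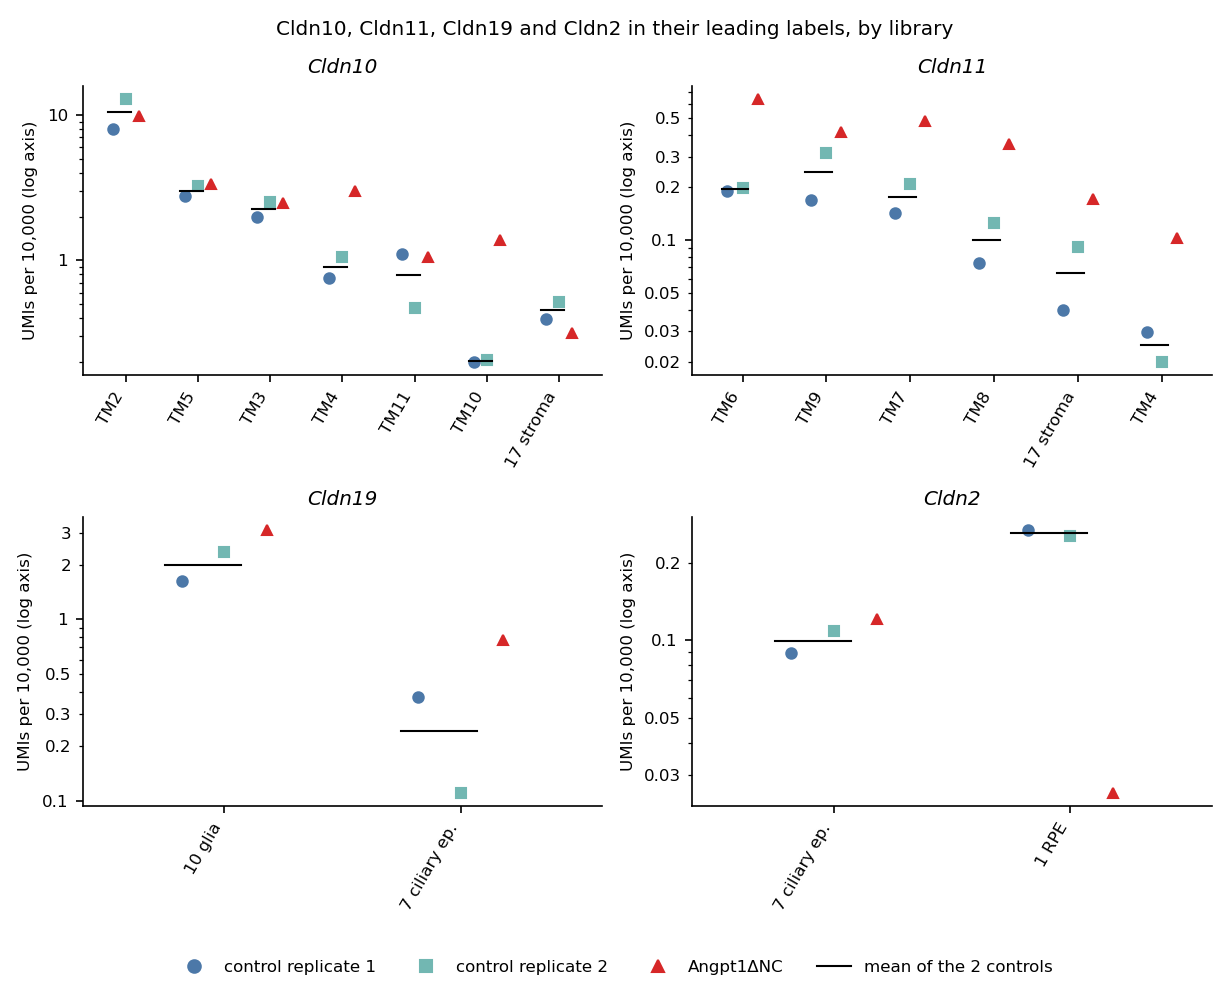
Levels of *Cldn10*, *Cldn11*, *Cldn19* and *Cldn2* (UMIs per 10,000, log axes that differ between panels) in their leading labels, 1 point per library with a bar at the mean of the 2 controls. *Angpt1*ΔNC lies above both controls for *Cldn10* in TM4 and TM10 and for *Cldn11* in all 6 labels shown. For *Cldn11*, TM4 and TM6 passed the filter on low counts through *Angpt1*ΔNC alone.

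The genes with the most similar pattern over the 32 labels were ranked by Pearson r of log2(level + 0.1) among 6953 genes, as a description. *Cldn7* was closest to *Trim29* (r = 0.996) and *Rab25* (0.995), *Cldn4* to *Spint1* (0.991), *Cldn1* to *Dmkn* (0.978) and *Cldn23* to *4833423E24Rik* and *Oit1* (both 0.988). *Cldn3* was closest to another member, *Cldn23* (0.977), followed by *4833423E24Rik* (0.97) and *Krt13* (0.969). *Cldn5* was closest to *Scarb1* (0.907), *Bcl6b* (0.906) and *Mmrn2* (0.902). *Cldn10* was closest to *Svep1* (0.869), which itself was highest in TM11. *Cldn11* was closest to *Crym* (0.873), *Cldn19* to *Cadm2* (0.987) and *Cldn2* to *Spock1* (0.891). The 32 points share 3 libraries and, for the epithelial genes, a few high labels set most of r.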

How the data were processed

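Cells dissociated from the angle region and limbus were profiled on the 10x Genomics Chromium platform. The authors deposited raw UMI counts per gene and called cell, made with Cell Ranger (2.1.1 in the submitters' processing notes, 3.0.2 in the matrix headers) on mm10, and a cluster label for each kept cell (200 or more genes and 1000 or more UMIs with mitochondrial reads at 10% or less, doublets removed before deposit, clustering in Seurat 3.1.3). Integrated natural log values in the deposited label tables were not used.

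The members and gene lists were chosen with earlier results of these data known. All 10 members are named. Genes of like pattern are the 3 with the highest Pearson r, of which 1 to 3 are given, and other tight junction genes are a list of 24 with those a result turns on named. Groups followed the genotype labels, and nothing further says how pools were assigned. With 1 *Angpt1*ΔNC pool, p-values rest on the spread between the control pools, moderated over the genes of a label. UMIs of the kept cells were summed per library within each of 29 labels and tested with edgeR 4.0.16 in R 4.3.3 (TMM, filterByExpr, quasi-likelihood test, Benjamini-Hochberg within a label, adjusted p under 0.05). The script was tested on simulated data. Levels, exact intervals and promoter matches were computed with Python 3.11.15, numpy 2.4.6, scipy 1.17.1 and pandas 2.3.3, and figures drawn with matplotlib 3.10.9.

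Alternatives were DESeq2 1.42.0, no TMM, all genes with 1 UMI or more in place of the low-count filter, equal cell numbers, leaving out the deepest 5% of cells or each control, and other ways to average levels or call cells positive. Robust shrinkage and leaving out the top cell of a gene were added after seeing the data. Gene positions come from GENCODE M21 (30934 of 31053 identifiers matched), promoters from RefSeq. A protein table was not used here. Values of some genes of the lists are not reported here.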

Additional observations from a re-analysis of the deposited data

Results flagged for a closer look

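For 4 claudins the *Angpt1*ΔNC library lay above both controls in one label and below both in another, among labels with at least 100 UMIs of the gene. The values are log2 ratios of the *Angpt1*ΔNC level to the mean control level, and in no case was the difference between the labels tested. *Cldn5* had the widest gap, at 6.87 in TM9 and -1.68 in SC, where *Angpt1*ΔNC had 15 cells. *Cldn10* stood at 2.77 in TM10 and at -0.53 (-0.528) in cluster 17. *Cldn3* stood at 1.11 in corneal epithelium (cluster 5) and at -0.88 (-0.879) in cluster 2, whose smallest library had 41 cells. *Cldn4* stood at 0.24 (0.238) in limbal epithelium (cluster 4) and at -0.33 (-0.328) in conjunctival epithelium (cluster 3), neither of which was called.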

How the results depend on the processing

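The 12 claudin calls fell to 5 with DESeq2, and all gene calls from 12614 to 2987. The DESeq2 calls were *Cldn3* in cluster 5, *Cldn5* in cluster 18 and TM9 and *Cldn10* in TM4 and TM10, and *Cldn11* in TM4 had no adjusted p there. Claudin calls numbered 9 without TMM (6 shared with the 12), 15 without a filter (9 shared), 11 with equal numbers of cells (8 shared), 14 without the deepest 5% of cells (11 shared) and 14 with robust shrinkage (12 shared), and 1 of these alternatives called a claudin lower, *Cldn10* in cluster 17 without TMM. Without TMM the share of higher calls was 40.5% against 50.2% over all labels, 31.1% against 51.8% in cluster 4, 34.2% against 54.9% in TM8 and 36.0% against 47.5% in TM9. The causes were not tested. No called claudin changed direction under any alternative run. Leaving out 1 control at a time gave log2 changes of 6.35 to 7.14 for *Cldn5* in TM9, 1.18 to 1.78 for *Cldn5* in cluster 18, 1.51 to 2.09 for *Cldn10* in TM4 and 2.69 to 2.70 for *Cldn10* in TM10. Adjusted p over the alternatives ran from 0.00425 to 0.493 for *Cldn1* in cluster 4, from 0.000146 to 0.566 for *Cldn3* in cluster 4, from 0.000963 to 0.465 for *Cldn7* in cluster 4 and from 3.16e-15 to 0.000219 for *Cldn10* in TM4.

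The leading label of a claudin was kept for 10 of 10 with pooled levels, without the deepest cells and with thinned shares, and for 7 of 10 by the unthinned share (*Cldn4*, *Cldn11* and *Cldn19* moved). By the share with at least 2 UMIs it was kept for 9 of 10, *Cldn11* moving from TM6 to TM7. In control replicate 2 alone it was also kept for 9 of 10, *Cldn11* moving to TM9. The mean control level of *Cldn11* was 0.2435 in TM9 and 0.1948 in TM6. Prior degrees of freedom were infinite in 9 of 29 label fits, clusters 4, 9, 13, 21 and 22 and TM1, TM3, TM5 and TM9. In TM10 they were 212, so p-values there, as in those 9, rest mainly on a spread shared over genes. With 1 *Angpt1*ΔNC library, its own spread is unknown, and sparse labels such as SC could not be tested. No paired analysis was possible because the sample labels link neither control pool to the *Angpt1*ΔNC pool.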

Other observations

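Other claudins were sparse. *Cldn12*, which departs from the other members of the family in sequence, had 1653 UMIs over the 3 libraries, *Cldn34c1* 488, *Cldn17* 284, *Cldn22* 249, *Cldn8* 92 and *Cldn15* 64.

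*Cldn5* also reached 0.438 UMIs per 10,000 on average in the limbal stem cell label (cluster 2). In control replicate 2 its 81 UMIs lay in 2 cells, 63 of them in 1, and both cells had endothelial markers. In corneal epithelium, 26 of the 28 *Cldn5* UMIs of *Angpt1*ΔNC were in 1 cell, and the fitted log2 change was 2.79. Leaving out the cell with the most *Cldn5* UMIs in each library gave a log2 ratio of summed levels of -0.75, which is not the fitted measure.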
